A study of Mus musculus with 7 samples.

Results

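Replication-dependent histone genes are the genes that supply the core and linker histones with which newly copied DNA is packed. In the mouse they lie in clusters, and they were taken here as every row of the deposited count table whose symbol starts with Hist1h, Hist2h, Hist3h or Hist4h. The rule found 68 of 23337 genes, of which 6 belong to class H1, 18 to H2A, 19 to H2B, 12 to H3 and 13 to H4. By cluster, 54 carry the prefix Hist1, 10 Hist2, 3 Hist3 and 1 Hist4. All 68 were found by symbol in the GENCODE annotation of build GRCm38, which placed the Hist1 genes on chromosome 13, the Hist2 genes on chromosome 3, the Hist3 genes on chromosome 11 and Hist4h4 on chromosome 6. One of them, Hist3h2bb-ps, is annotated as a pseudogene.

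The counts come from cardiomyocytes sorted from mouse hearts at postnatal day 30 (P30, 3 libraries) and postnatal day 6 (P6, 4 libraries). At both ages the genotype is given as Rosa-Tom/Cas9, with no statement of which allele each mouse had, and AAV9-cTNT-Cre, a virus that makes Cre recombinase under a cardiac troponin T promoter, was injected on postnatal day 1. The time since injection thus grew with age, and the effects of each cannot be told apart. A treatment note shared by all samples names P14 as the day of collection; titles, age labels and the design text name P30 or P6, and these were used. Whether each library is a mouse of its own is not stated in the labels, so the spread behind each p-value is one between libraries and could be technical. Columns of the count table carry letters, and libraries are called P30a to P30c and P6a to P6d after them. Library totals ran from 15555469 to 19368717 counts at P30 and from 10594932 to 51427646 counts at P6. Markers of cardiomyocytes (8 genes) summed to between 123400 and 127500 CPM (counts scaled to the size of the library) at P30 and between 82870 and 102700 CPM at P6. Of these 8, 4 were called higher at P30 and 0 lower (edgeR adjusted p under 0.05). Markers of other cells were present too, and more of them at P30: 8 of 8 endothelial, 6 of 7 smooth muscle and pericyte and 6 of 6 tested leukocyte markers were called higher, and 0 of 7 tested fibroblast markers (edgeR adjusted p under 0.05). Over all tested genes, 26.3% were called higher. The 8 endothelial markers summed to between 299 and 606 CPM at P30 and between 97.9 and 176 CPM at P6, and 9 leukocyte markers to between 12.4 and 40.0 CPM at P30 and between 2.27 and 4.55 CPM at P6. The part of these cells in the histone values was not tested, and in RNA from pooled cells a smaller number of expressing cells cannot be told from less RNA per cell.

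Histone mRNAs of this family are made mainly in S phase, when the demand for histones is high. Unlike other animal mRNAs, most of them lack a poly(A) tail: the 3′ end is cut just past a short hairpin, the histone stem-loop, which is held by the stem-loop binding protein Slbp. Some of these genes can also give longer, polyadenylated transcripts when the cut at the stem-loop is passed over, which is known from differentiated cells. The libraries were made with SMART-Seq v4, a kit that starts cDNA synthesis from an oligo-dT primer, and the labels give the molecule as polyA RNA. Transcripts that end at the stem-loop offer no tail to such a primer, and the values below describe what such a library holds, not all histone mRNA in the cells. Cardiomyocytes of the mouse leave the cell cycle in the first weeks after birth. Replacement histones, which are mostly made outside S phase and from ordinary polyadenylated mRNAs, supply chromatin in non-dividing cells.

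Signals of both kinds of 3′ end were looked for in the annotated transcripts, and are printed here because some members hold both. Annotated transcripts of 67 protein-coding members were searched after the stop codon, on the transcript strand, for a 16-base hairpin built on the core CTTTTNAG with at least 3 of the 4 outer base pairs matched. It was found in 43, and with 1 loop base freed (CTTNTNAG, a change made after the transcripts were seen) in 45, starting 22 to 59 bases after the stop codon. Among 20152 other protein-coding genes, 0.0496% held the CTTTTNAG form within the first 74 bases after the stop codon, and 0.119% the CTTNTNAG form. The most frequent hairpin, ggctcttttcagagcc, occurred in 25 members of classes H1, H2A, H2B and H3, and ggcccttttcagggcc in 7 members, all of class H4. In the following 26-base stretches from members described below, capitals mark the hairpin.
Hist1h1c: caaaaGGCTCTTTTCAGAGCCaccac
Hist1h1e: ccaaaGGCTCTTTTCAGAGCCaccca
Hist3h2a: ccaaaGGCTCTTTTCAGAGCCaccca
Hist1h2ae: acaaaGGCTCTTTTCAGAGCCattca
Hist2h3c1: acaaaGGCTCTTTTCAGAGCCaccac
Hist1h4h: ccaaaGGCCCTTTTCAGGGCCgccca

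In 22 members the search found no hairpin, but 17 of these had fewer than 60 annotated bases after the stop codon, so that the annotation may simply stop short of it. The other 5 were Hist1h2bc, Hist2h2be, Hist1h2bp, Hist1h2bq and Hist1h2br. For each gene only the longest annotated protein-coding transcript was searched and measured, so a hairpin in another transcript of these genes would be missed. The annotated transcript of Hist1h2bc (chr13:23684199-23692908, plus strand) has 2 exons, whereas that of Hist2h2be (chr3:96221119-96223738, plus strand) is a single exon with 2192 bases after the stop codon. The sequence AATAAA, the usual signal for poly(A) addition, was present in the last 50 annotated bases of 14 members, as it was in 62.3% of the 20152 other genes. Of the 14 members, 10 also held the hairpin, upstream of it. AATAAA is shown in capitals below for 5 members, of which all but Hist2h2be are also in the list of hairpins.
Hist1h1c: tatgcttctAATAAAaagcgttta
Hist3h2a: tatatgcccAATAAAataagagta
Hist2h2be: attattattAATAAAgttaccgat
Hist1h2ae: agcttctccAATAAAtgggtcaat
Hist2h3c1: tttaatcccAATAAAaatttaaca

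Few of the 68 members were counted in number. No read was counted for 13 in any library, 20 had fewer than 10 counts over all 7 libraries, 26 had from 10 to under 100, and only 9 had more. The 5 most counted were Hist1h1c, Hist1h2bc, Hist3h2a, Hist2h2be and Hist1h4h, and together they held 93.3% of all counts of the family. All members together took 0.0163% to 0.0175% of the counts of a P30 library and 0.0184% to 0.0234% of those of a P6 library. The annotation was divided at 100 bases past the hairpin (or past the stop codon where none was found). The 28 members with a longer annotated end held 94.9% of the family's counts, with a median of 46.5 counts, and the 39 with a shorter end held 5.05%, with a median of 4 counts. These counts are not scaled to transcript length, and the longer ends have 150 to 4931 annotated bases after the stop codon. The part of length in this contrast was not tested. AATAAA stood near the annotated end of 14 of the 28 longer and of 0 of the 39 shorter transcripts. Of the 39, 13 have no annotated base after the stop codon, where the search began, and none has more than 114. The 0 thus follows in part from the division itself. Hist1h4h was the exception among the well-counted members: its annotated transcript ends 46 bases past the hairpin, yet it had 1108 counts over all libraries. Whether the annotated ends are those used in these cells was not tested.

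**Figure D1:**
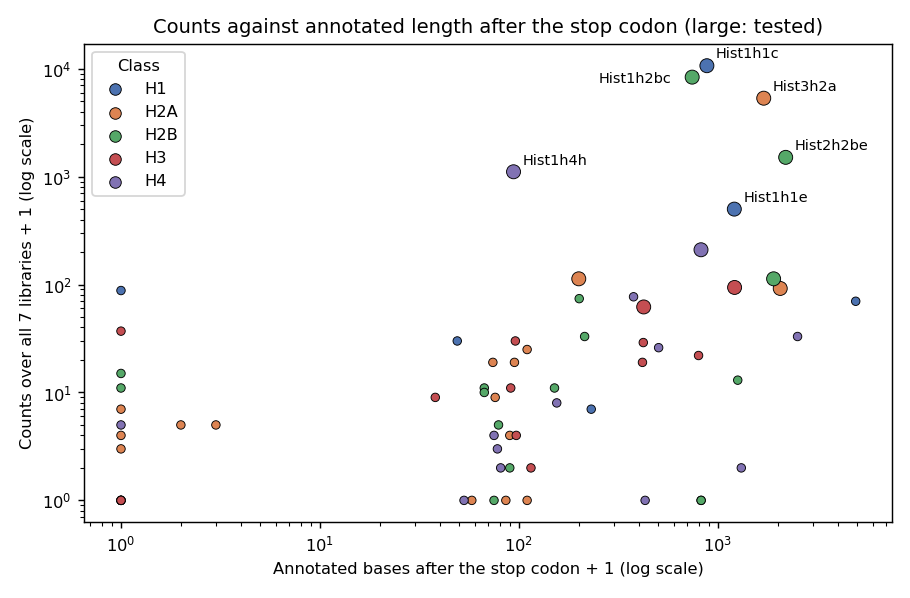
Counts of 67 protein-coding histone cluster genes over all 7 libraries (vertical, log scale, 1 added) against the number of annotated bases after the stop codon (horizontal, log scale, 1 added), coloured by histone class, with large points for tested genes. Hist1h1c, Hist1h2bc, Hist3h2a and Hist2h2be lie at the upper right with 742 to 2192 annotated bases after the stop codon, and Hist1h4h stands apart with 93.

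Counts of single members also depend on how reads from near-identical copies were treated, which is not given in the sources used here. In 30 members more than 50% of all 50-base stretches of the annotated transcript were found unchanged in a transcript of a gene elsewhere, and 9 of the 13 members without a count were among them. The median share of such stretches was 89.8% in the members without a count, 53.2% in the 56 untested and 11.5% in the 12 tested members. The part of this in the low counts was not tested.

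Of the 68 members, 12 passed the filter on low counts (edgeR's filterByExpr, which asked here for about 0.613 CPM in at least 3 libraries) and entered the test across all 12561 tested genes. At P30, 3 of these 12 were higher and 1 was lower than at P6 (adjusted p under 0.05, quasi-likelihood test of edgeR with Benjamini-Hochberg adjustment), while 8 did not pass. Over all tested genes, 26.3% were called higher and 27.8% lower, or 54.1% in either direction. Among the 12 members, 25% were called higher, close to the share of all genes, and 8.33% lower. The median log2 fold change (P30 over P6) was 0.11 in the members and -0.02 over all tested genes. The CPM of the ages did not overlap for 5 of the 12 members, and for 56.6% of all tested genes. Some members met the filter through a single age and were bound to differ. Hist1h2ae reached the level in 3 P6 libraries and no P30 library, Hist2h3c1 in 3 P30 libraries and no P6 library, and Hist1h2be and Hist2h3c2 in 3 P30 libraries and 1 P6 library. Of the 5 members without overlap, only Hist2h2be was above the level in every library.

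**Figure D2:**
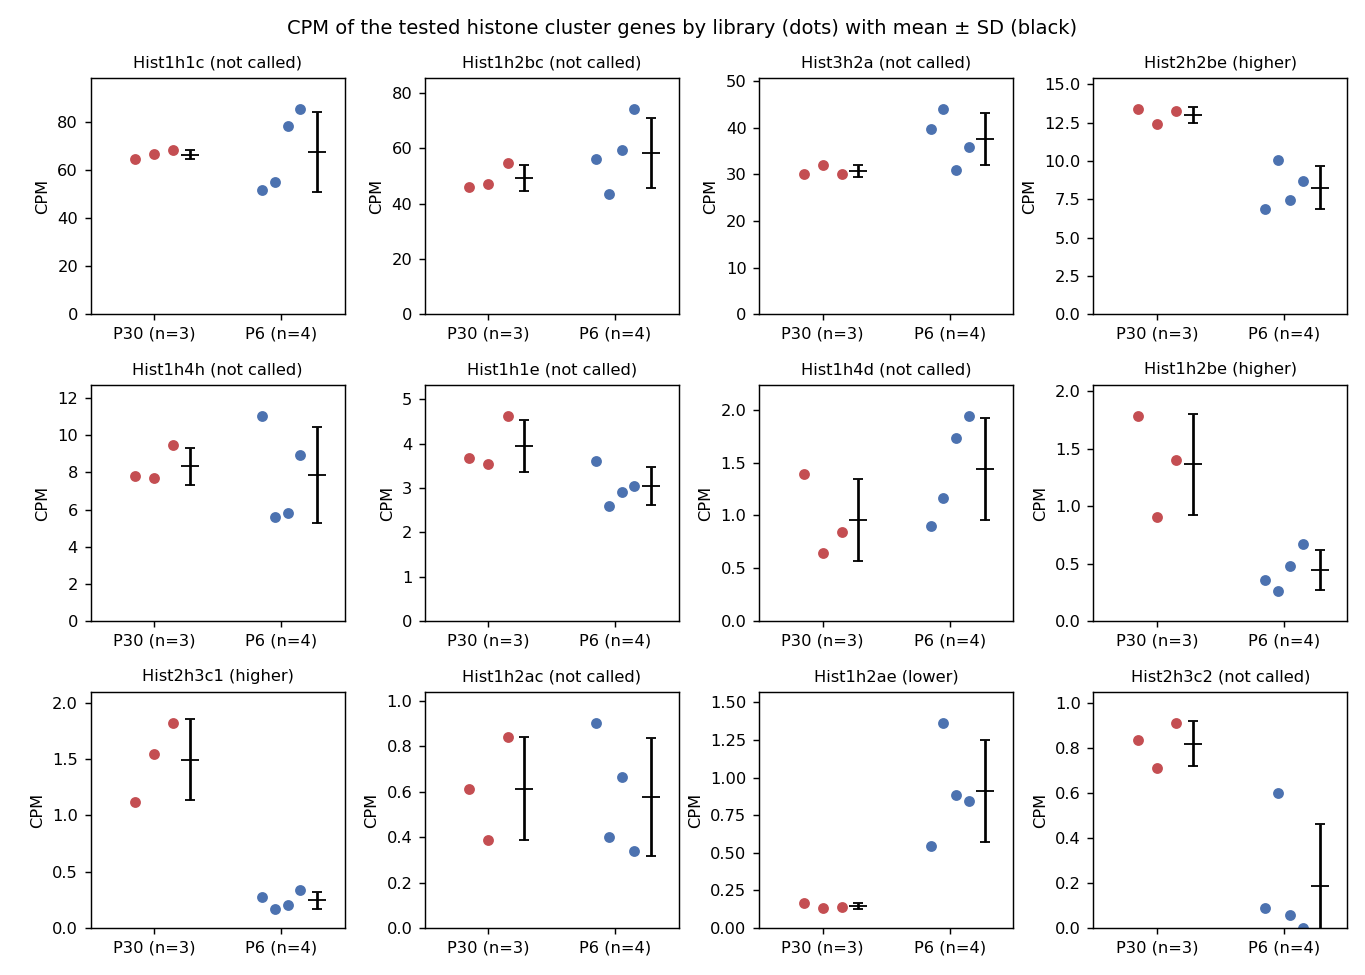
CPM of each of the 12 tested histone cluster genes, with 1 dot per library, P30 left of P6, and the mean ± SD in black (the lower bar of Hist2h3c2 at P6 runs past 0). Hist1h1c and Hist1h2bc overlap between the ages, whereas Hist2h2be, Hist1h2be and Hist2h3c1 are higher and Hist1h2ae is lower in every P30 library.

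Linker histones of class H1 bind the DNA that enters and leaves the nucleosome. Hist1h1c (chr13:23738808-23740367, plus strand), a linker histone subtype of somatic cells, was the most counted member of the family. It had 64.5, 66.9 and 68.3 CPM in P30a to P30c, and 51.8, 55.1, 78.3 and 85.4 CPM in P6a to P6d. The P30 libraries lay close together and inside the range of the P6 libraries, which fell into a lower pair, P6a and P6b, and a higher pair, P6c and P6d. The log2 fold change of Hist1h1c was -0.02 ± 0.17 (SE, edgeR adjusted p = 0.914). Hist1h1c made up 36.6% ± 0.856 (SD, n = 3) of the family's counts at P30 and 35% ± 4.98 (SD, n = 4) at P6.

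Hist1h1e (chr13:23620629-23622558, minus strand), another somatic linker histone, had 3.68, 3.55 and 4.63 CPM in P30a to P30c, and 3.62, 2.60, 2.91 and 3.04 CPM in P6a to P6d. Its ages overlapped, and its log2 fold change of 0.39 ± 0.23 missed the threshold (edgeR adjusted p = 0.177). Its annotated gene overlaps Hist1h2be on the same strand, so reads of these genes may be mixed.

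The other linker histones were too low to be tested, but Hist1h1b stood apart in its raw counts. Hist1h1b (chr13:21779883-21780625, minus strand), whose annotated transcript ends at the stop codon, had 0, 1 and 0 counts in P30a to P30c, and 2, 15, 55 and 14 counts in P6a to P6d. In CPM pooled over libraries, P30 was at 0.0262 of P6, with an exact 95% interval of 0.000655 to 0.150 that covers counting error only. Without the filter on low counts, the log2 fold change of Hist1h1b was -4.79 (edgeR adjusted p = 0.0016). The authors' deposited table gives Hist1h1b a log2 fold change of -4.99 with an adjusted p of 0.00200. No 50-base stretch of its transcript was found elsewhere. Hist1h1d had 5, 4 and 5 counts in the P30 libraries and 3, 9, 31 and 12 counts in the P6 libraries, or 0.296 ± 0.0484 CPM (SD, n = 3) at P30 and 0.538 ± 0.344 CPM (SD, n = 4) at P6, which overlap.

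In class H2A most counts belonged to Hist3h2a (chr11:58954685-58956830, plus strand), which encodes a core H2A outside the large clusters and overlaps Trim17 on the same strand. It had 30.1, 32.1 and 30.0 CPM in P30a to P30c, and 39.7, 44.0, 30.9 and 35.9 CPM in P6a to P6d. Only P6c fell within the range of the P30 libraries. The log2 fold change of Hist3h2a was -0.29 ± 0.13 and missed the threshold (edgeR adjusted p = 0.0865), but without P6c the gene was called lower (edgeR adjusted p = 0.0289).

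Among the tested members, only Hist1h2ae (chr13:23570517-23571220, minus strand) was called lower. This core H2A gene had 0.167, 0.129 and 0.140 CPM in P30a to P30c, and 0.542, 1.36, 0.884 and 0.843 CPM in P6a to P6d. All 3 P30 libraries were lower than all 4 P6 libraries, and their values come from 3, 2 and 2 counts, which is at the level of 3 counts per library (0.167 to 0.210 CPM at P30). The log2 fold change was -2.63 ± 0.53 (edgeR adjusted p = 0.00225). Hist1h2ae met the filter through the P6 libraries alone and was bound to differ. Without P6b or without P6c the gene no longer met the filter and was not tested, so the call rests on both. Of the 50-base stretches of Hist1h2ae, 43.2% were found in other genes. Hist1h2ac, another core H2A gene, had 0.613, 0.388 and 0.841 CPM in the P30 libraries and 0.904, 0.399, 0.663 and 0.337 CPM in the P6 libraries, which overlap (log2 fold change 0.10 ± 0.49, edgeR adjusted p = 0.874). The untested Hist2h2aa1 had 3, 5 and 2 counts in P30 libraries and 2, 4, 6 and 2 in P6 libraries, and 96.3% of its 50-base stretches occur in another annotated gene.

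Class H2B gave the most counted core histone gene, Hist1h2bc, one of the spliced H2B transcripts in which no hairpin was found. It had 46.0, 47.1 and 54.7 CPM in P30a to P30c, and 56.1, 43.5, 59.2 and 74.1 CPM in P6a to P6d. P6b lay below and the other P6 libraries above the P30 libraries. Its log2 fold change was -0.24 ± 0.16 (edgeR adjusted p = 0.244), and Hist1h2bc was not called, though it was called lower without P6b (edgeR adjusted p = 0.0389). Per kilobase of annotated transcript, and averaged over the ages, it reached 46.5 CPM, against 43.0 for Hist1h1c, 17.2 for Hist1h4h, 15.9 for Hist3h2a and 4.06 for Hist2h2be.

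Hist2h2be rose, and it was the only called member above the level of the filter in all 7 libraries. This H2B gene is known in the mouse for its use in olfactory sensory neurons, which do not divide. It had 13.4, 12.4 and 13.2 CPM in P30a to P30c, and 6.87, 10.0, 7.48 and 8.69 CPM in P6a to P6d. Every P30 library was higher than every P6 library. The log2 fold change was 0.65 ± 0.16 (edgeR adjusted p = 0.00761), and it remained past the threshold with any 1 library left out (edgeR adjusted p from 0.00291 to 0.0314). No 50-base stretch of its transcript was found in another gene.

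Hist1h2be (chr13:23583670-23621124, minus strand, 2 exons) also rose. It had 1.78, 0.904 and 1.40 CPM in P30a to P30c, and 0.362, 0.266, 0.479 and 0.675 CPM in P6a to P6d, with no overlap, and it met the filter through the P30 libraries. The log2 fold change was 1.65 ± 0.44 (edgeR adjusted p = 0.00988), a call that was lost without P30a (edgeR adjusted p = 0.0610). Hist1h2bg, which was not tested, had 7, 7 and 3 counts in P30 libraries and 7, 12, 32 and 5 in P6 libraries. Hist3h2ba, chosen after its values were seen, had no count in any P30 library and 9, 7, 13 and 3 counts in P6a to P6d. Against 3 counts over all P30 libraries (0.0629 CPM), Hist3h2ba was at least 4.74-fold lower at P30, and the authors' deposited table gives it an adjusted p of 0.00543.

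Class H3 was low in total, with 177 counts at P30 and 131 at P6, but its summed CPM differed most between the ages. Low counts limit this reading. Without the filter, the median log2 fold change over all 19954 genes with a count was 0.22, against -0.02 over the tested genes. From 15720 to 18223 genes had a count in a P30 library, and from 14476 to 15692 in a P6 library. The part of this in the low members of H3 and of other classes was not tested. Hist2h3c1 (chr3:96246685-96248509, plus strand) and Hist2h3c2 (chr3:96238108-96239127, minus strand) are neighbouring genes for the replication-type histone H3. Hist2h3c1 rose, with 1.11, 1.55 and 1.82 CPM in P30a to P30c and 0.271, 0.166, 0.203 and 0.337 CPM in P6a to P6d. All P30 libraries were higher than all P6 libraries, with a log2 fold change of 2.70 ± 0.42 (edgeR adjusted p = 0.000537). As given above, Hist2h3c1 met the filter through the P30 libraries alone and was bound to differ. Its P6 values come from 23 counts over all P6 libraries.

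Hist2h3c2 had 0.836, 0.710 and 0.911 CPM in P30a to P30c, and 0.0904, 0.599, 0.0553 and 0 CPM in P6a to P6d. The ages did not overlap, but P6b lay near the P30 libraries, and the log2 fold change of 1.92 ± 0.82 missed the threshold (edgeR adjusted p = 0.0729). Without P6b it was 3.85, with an edgeR adjusted p of 0.00109. Of the 50-base stretches of Hist2h3c1, 34.7% occur in Hist2h3c2, so reads may be shared between them. Hist2h3c1 also overlaps another annotated gene, Gm20634, on the same strand, and 63.5% of the stretches of Hist2h3c2 occur in Gm20634. Reads counted to Gm20634 would be missing from a sum of both genes. Summed, both genes had 1.95, 2.26 and 2.73 CPM in P30a to P30c, and 0.362, 0.765, 0.258 and 0.337 CPM in P6a to P6d. Among the untested H3 genes, Hist1h3g had 4, 5 and 12 counts at P30 and 0, 5, 2 and 1 at P6, and Hist1h3e had 8, 4 and 8 counts at P30 and 2, 0, 6 and 0 at P6. Others, chosen after their values were seen, lay the other way with overlap between the ages. Hist1h3i had 4, 2 and 2 counts at P30 and 3, 5, 20 and 0 at P6, or 0.164 ± 0.0513 CPM (SD, n = 3) at P30 and 0.201 ± 0.158 CPM (SD, n = 4) at P6. Hist1h3d had 2, 1 and 1 counts at P30 and 6, 4, 0 and 7 at P6, or 0.0821 ± 0.0256 CPM at P30 and 0.316 ± 0.294 CPM at P6.

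In class H4, whose genes encode nearly the same protein, no member was called. Hist1h4h (chr13:23531050-23531519, plus strand) had 7.80, 7.69 and 9.46 CPM in P30a to P30c, and 11.0, 5.62, 5.84 and 8.94 CPM in P6a to P6d. The ages overlapped, and the log2 fold change was 0.11 ± 0.26 (edgeR adjusted p = 0.737). With a trend on transcript length taken out of each library, Hist1h4h was called higher, with a log2 fold change of 0.83 (edgeR adjusted p = 0.00350). Hist1h4d had 1.39, 0.646 and 0.841 CPM in the P30 libraries and 0.904, 1.16, 1.73 and 1.94 CPM in the P6 libraries, again with overlap (log2 fold change -0.57 ± 0.41, edgeR adjusted p = 0.263).

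Hist1h4i and Hist4h4 were not tested. Hist1h4i had 12, 9 and 12 counts in P30 libraries and 2, 16, 22 and 3 in P6 libraries. Hist4h4, the single gene of its cluster, had 8, 7 and 6 counts in P30 libraries and 0, 4, 6 and 1 in P6 libraries. In CPM the P30 libraries of Hist4h4 lay between 0.421 and 0.452 and the P6 libraries between 0 and 0.133, without overlap, and the authors' deposited table gives it a log2 fold change of 2.25 with an adjusted p of 0.0593.

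Sums over a class are not changed when reads are moved between copies of the same class, and they include members that were not tested. Reads left uncounted because they match several genes, or counted to a gene outside the family, would still be missing from the sums. All 68 members together had 176, 179 and 191 CPM in P30a to P30c, and 177, 168, 194 and 227 CPM in P6a to P6d. All 3 P30 libraries lay within the range of the P6 libraries, and the means were 182 ± 8.05 CPM (SD, n = 3) at P30 and 192 ± 25.7 CPM (SD, n = 4) at P6. This overlap holds on the TMM-scaled CPM and not on library totals, where the family's share of each P30 library, given above, was below that of each P6 library. The sums of classes H1, H2B and H4 overlapped between the ages. Class H1 averaged 71.1 ± 2.42 CPM at P30 and 72.2 ± 17.3 CPM at P6, class H2B 64.5 ± 4.81 CPM at P30 and 68.5 ± 12.4 CPM at P6, and class H4 10.7 ± 1.08 CPM at P30 and 10.0 ± 2.40 CPM at P6.

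Classes H2A and H3 did not overlap and differed in opposite directions. The H2A sums lay only just apart, at 33.07 CPM in P30b and 33.25 CPM in P6c. Hist3h2a, which held most H2A counts, overlapped between the ages and was not called. H2A summed to 31.4, 33.1 and 31.1 CPM in P30a to P30c, and to 41.5, 46.0, 33.2 and 38.4 CPM in P6a to P6d, a log2 ratio of means of -0.32. H3 summed to 3.18, 3.49 and 4.63 CPM in P30a to P30c, and to 1.54, 1.46, 1.05 and 1.10 CPM in P6a to P6d, a log2 ratio of 1.55. These sums carry no test, since the members were chosen together, and H3 made up only 2.06% ± 0.322 (SD, n = 3) of the family's counts at P30 and 0.690% ± 0.207 (SD, n = 4) at P6. By cluster, the 10 Hist2 genes summed to 15.8, 15.2 and 16.1 CPM in P30a to P30c, and to 7.86, 11.1, 8.18 and 9.45 CPM in P6a to P6d, without overlap, while the Hist1 and Hist3 sums overlapped. The Hist2 sum is mostly that of Hist2h2be, which held 1508 of its 1723 counts. Hist2h2be alone averaged 13.0 CPM at P30 and 8.27 CPM at P6, and the Hist2 sum 15.7 CPM at P30 and 9.13 CPM at P6. By annotated end, the longer-ended members averaged 172 ± 6.87 CPM at P30 and 181 ± 24.8 CPM at P6, and the shorter-ended members without Hist1h4h 1.6 ± 0.301 CPM at P30 and 2.43 ± 0.715 CPM at P6, both with overlap between the ages.

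**Figure D3:**
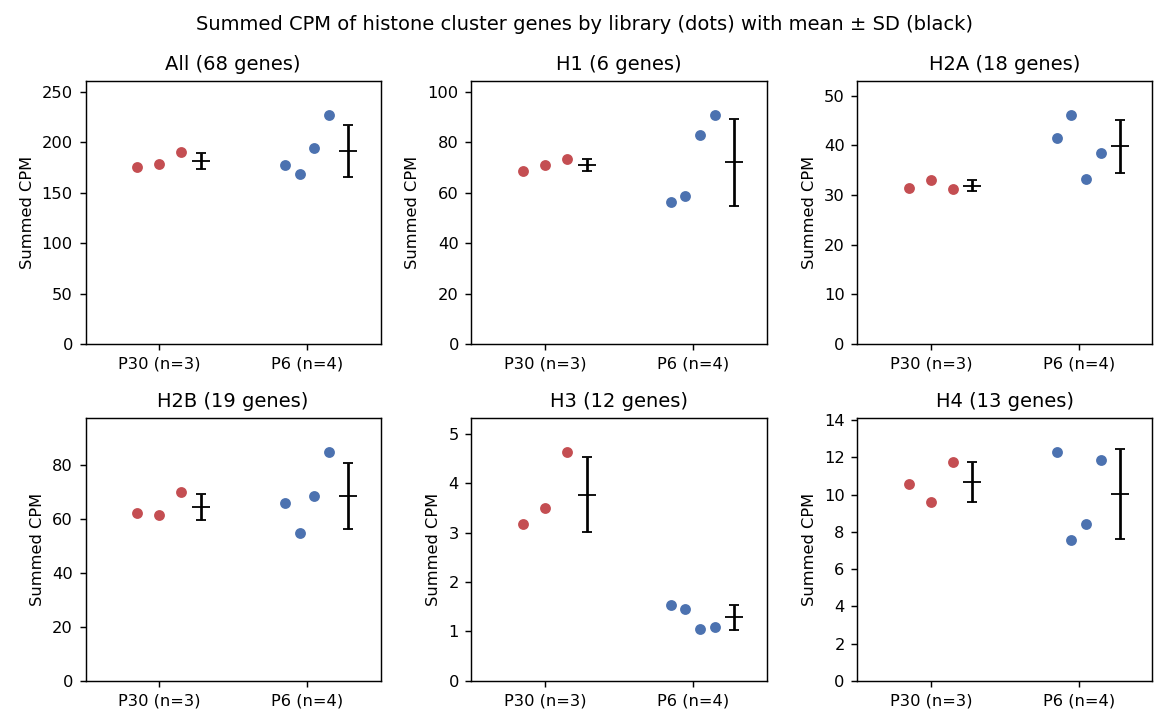
Summed CPM of all histone cluster genes and of each class, with 1 dot per library, P30 left of P6, and the mean ± SD in black; the vertical scale differs between panels. The sum of all members is 182 CPM at P30 and 192 CPM at P6, and only H2A, by a narrow gap, and H3 show no overlap between the ages.

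Genes that act with these histones were mostly lower at P30, except for those that process or degrade histone mRNA. Over all tested genes, 27.8% were called lower and 26.3% higher. Lists of such genes were written from general knowledge, and their counts are given as a description. All 28 tested S phase genes, which include DNA polymerases, Mcm helicase subunits and nucleotide synthesis enzymes, were lower at P30, with a median log2 fold change of -1.98. Rrm1 and Rrm2 encode the subunits of ribonucleotide reductase, which makes the building blocks of DNA. Rrm1 had 29.3, 24.5 and 21.9 CPM in the P30 libraries, and 87.9, 95.5, 108 and 111 CPM in the P6 libraries. Rrm2 had 6.63, 6.46 and 5.47 CPM in the P30 libraries, and 122, 112, 152 and 156 CPM in the P6 libraries. The summed level of the S phase genes was 183 CPM at P30 and 851 CPM at P6.

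Replacement histones were lower as well: 10 of 11 tested (90.9%) were called lower and none higher, with a median log2 fold change of -1.47. The 11 include H2afx (log2 fold change -1.64 ± 0.14) and Cenpa (-1.47 ± 0.18). Whether the RNA of each listed gene was made outside S phase was not tested. H3f3b, a gene for the replacement histone H3, had 71.2, 66.6 and 76.4 CPM in the P30 libraries, and 278, 252, 336 and 369 CPM in the P6 libraries (log2 fold change -2.11 ± 0.14, edgeR adjusted p = 4.2e-06). H3f3a, which encodes the same protein, averaged 51.7 ± 4.43 CPM at P30 and 145 ± 17.2 CPM at P6. H2afz, a replacement H2A found near gene starts, fell by 2.18 ± 0.22 on the log2 scale. H1f0, the linker histone of differentiated cells, averaged 133 ± 5.13 CPM at P30 and 247 ± 28.7 CPM at P6, and fell by 0.89 ± 0.10 (edgeR adjusted p = 9.9e-05). The member that did not pass was H2afy, a macroH2A gene, with a log2 fold change of -0.16 ± 0.11.

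As a share of counts, which does not depend on library scaling, the cluster genes gained on the replacement genes. They held 30.2%, 31.1% and 31.6% of the counts of all cluster and replacement histone genes in P30a to P30c, and 15.2%, 15.7%, 15.1% and 16.2% in P6a to P6d. The same share within the linker histones was 34.7% ± 1.18 (SD, n = 3) at P30 and 22.2% ± 2.52 (SD, n = 4) at P6, and within H3 it was 2.96% ± 0.444 at P30 and 0.292% ± 0.0935 at P6. None of these shares overlapped between the ages. The replacement genes summed to 405 CPM at P30 and 1042 CPM at P6.

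**Figure D4:**
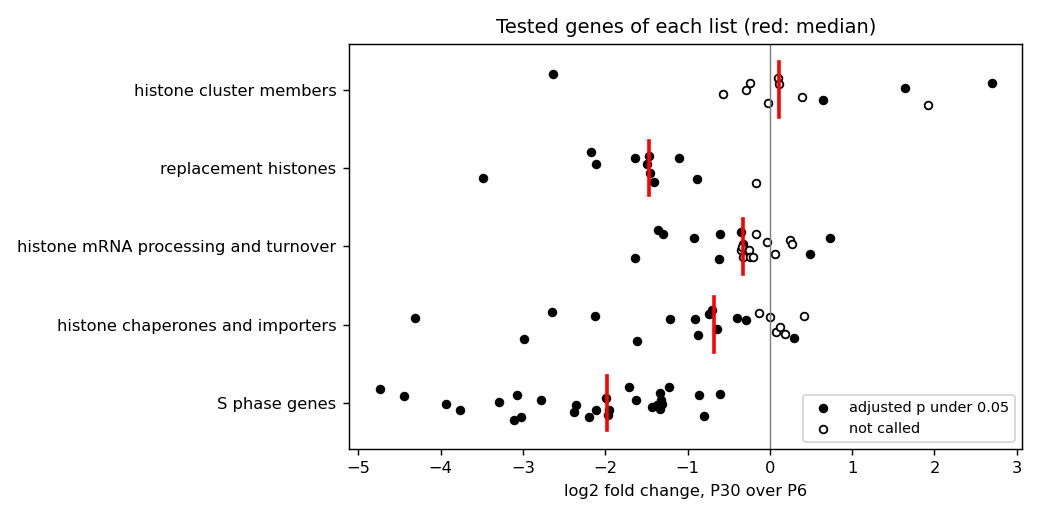
Log2 fold change (P30 over P6) of the tested genes of each list, with filled points for an edgeR adjusted p under 0.05, open points for genes not called and a red line at the median; vertical scatter within a list carries no meaning. The median is 0.11 for the 12 histone cluster genes, -1.47 for replacement histones and -1.98 for S phase genes.

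Genes that process or degrade histone mRNA went both ways. Of 21 tested, 8 (38.1%) were lower and 2 (9.52%) higher at P30, against 27.8% lower and 26.3% higher over all tested genes. The median log2 fold change was -0.32. Slbp, which binds the hairpin and is also one of the 28 S phase genes, had 16.2, 20.1 and 14.7 CPM in the P30 libraries, and 22.4, 18.5, 26.9 and 35.7 CPM in the P6 libraries. The ages overlapped in P6b, and Slbp fell by 0.60 ± 0.22 on the log2 scale (edgeR adjusted p = 0.0407). Snrpb, a component of spliceosomal and histone processing particles, and Zcchc11, a uridyl transferase, fell by 0.35 ± 0.09 (Snrpb) and 0.93 ± 0.13 (Zcchc11) on the log2 scale. Sympk, a scaffold of the machinery that cuts the 3′ end, and Upf1, a helicase that takes part in the decay of histone mRNA, rose by 0.49 ± 0.12 (Sympk) and 0.74 ± 0.13 (Upf1).

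Of 20 tested histone chaperones and importers, 13 (65%) were lower and 1 (5%) higher, with a median log2 fold change of -0.67. The most counted that fell were Rbbp7 and Rbbp4, histone-binding proteins shared by several chromatin complexes, of which Rbbp7 had 320 ± 18.9 CPM at P30 and 391 ± 38.3 CPM at P6, and Rbbp4 160 ± 14.6 CPM at P30 and 293 ± 22.6 CPM at P6. Ipo4, an importer of histones into the nucleus, rose by 0.29 ± 0.10 (edgeR adjusted p = 0.0323).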

How the data were processed

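Raw counts per gene were deposited by the authors and made with CASAVA 1.8, STAR 2.5.3a and featureCounts of Subread 1.5.2 on mm10, per the submitters' processing notes. Annotation, strand setting and handling of multi-mapping reads: not given in the sources used here. A table deposited by the authors holds a DESeq2 comparison of the ages, per the file headers: a mean signal of scaled counts, the log2 fold change with its error, a Wald score, p-values and adjusted p-values. Its fold changes had the sign of those computed here, P30 over P6, in 12458 of 12561 tested genes. The quasi-likelihood test of edgeR 4.0.16 (R 4.3.3) was run on the 12561 genes kept by filterByExpr, with TMM scaling and Benjamini-Hochberg adjustment over all of them (threshold 0.05). CPM were taken on the TMM-scaled totals, where 3 counts corresponded to 0.0553 to 0.271 CPM. DESeq2 1.42.0, other scalings and filters, a length trend and each library left out were tried. The procedure was tested on simulated data.

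Libraries of the same age were no duplicates: the lowest chi-square per gene between them was 13.0, where sampling noise gives about 1. Sequences, gene positions and transcript lengths came from GENCODE release M21 (GRCm38). The members and lists were chosen with earlier results of these data known. Named with values were the 4 members of each class with the highest CPM averaged over the ages, every member called higher, the 3 largest called changes, the 2 most counted called genes per direction of the other lists, and H3f3a, H3f3b, H2afz, H1f0 and Slbp. The fibroblast markers summed to 129 to 298 CPM at P30 and 126 to 341 CPM at P6, the smooth muscle and pericyte markers to 486 to 582 CPM at P30 and 351 to 527 CPM at P6, and the erythroid markers to 0.167 to 0.840 CPM at P30 and 0.313 to 1.33 CPM at P6, with Hba-a1 and Hba-a2 at 0.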

Additional observations from a re-analysis of the deposited data

Results flagged for a closer look

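Among the named members and class sums, 1 P6 library lay far from the other 3. Hist2h3c2 had 0.599 CPM in P6b, from 18 counts, while P6a, P6c and P6d lay between 0 and 0.0904 CPM. Chance alone flags about 1 in 20 such groups. The test of Hist2h3c2 turned on this library: the log2 fold change was 1.92 with it and 3.85 without it.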

How the results depend on the processing

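No paired analysis was possible because the count columns carry letters that match no replicate number of the labels. The number of members called lower at P30 was 1, but 3 with library totals (Hist3h2a and Hist1h2bc added), 3 without the filter and 3 by DESeq2 (Hist1h1b and Hist3h2ba added in both), and 0 with a filter of 1 CPM in 3 libraries, which tests 8 members; with 1 library left out it was 1 to 2. These are not the same genes: without P6b or P6c Hist1h2ae was not tested, and the gene called lower was Hist1h2bc (without P6b) or Hist3h2a (without P6c), while Hist1h1b was called beside Hist1h2ae whenever 1 P30 library was left out. The number called higher was 3, and 2 to 4 under all alternatives and with 1 library left out. The log2 ratio of the sum of all members, -0.08, was -0.26 with library totals, where the ages no longer overlapped, a scaling that moved the median of all genes from -0.02 to -0.20. That of H2A, -0.32, was -0.50 with library totals and -0.92 without Hist3h2a. That of H4, 0.09, was -0.09 with library totals. That of H2B, -0.09, was 0.57 without Hist1h2bc, and that of H3, 1.55, was 2.43 over tested members and 1.12 without Hist2h3c1. The tested H3 members, Hist2h3c1 and Hist2h3c2, met the filter through the P30 libraries. The value of 2.43 is therefore favoured by the filter and is no check on the H3 sum. Fold changes near 0 changed sign without passing the threshold: Hist1h4h was -0.069 and Hist1h2ac -0.083 with library totals, and Hist1h2bc was 0.029 and Hist1h1c 0.13 with the length trend removed. With 1 library left out they ranged from -0.024 to 0.31 for Hist1h4h, from -0.17 to 0.34 for Hist1h2ac and from -0.13 to 0.094 for Hist1h1c. The cause of these changes was not tested. For the 56 untested members, counts limit what can be said: 3 counts are 0.167 to 0.210 CPM in a P30 library.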
